A study of Homo sapiens with 4 samples.

Results

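The messages of 35 aminoacyl-tRNA synthetases were followed in RNA from the culture supernatant of HEK293T, an established human embryonic kidney cell line. They were chosen by gene symbol from the 61543 genes of the count table and comprise 19 cytosolic enzymes, whose symbols end in 1 or are FARSA and FARSB, and 16 mitochondrial enzymes, whose symbols end in 2. The study asked which RNAs Cas13d binds in cells, using EPN24, a protein that assembles into cages secreted from the cell. The first group held 2 libraries of EPN24-Cas13d, in which Cas13d, an RNA-guided RNA-cutting enzyme of the CRISPR systems, is fused to the cage protein. The second held 2 libraries of EPN24. The 4 libraries share the cell line, the growth medium and the supernatant protocol, in which ERCC synthetic spike-in RNAs were added to the supernatant before extraction. The labels name neither a guide RNA nor the promoter that drives the fusion, and nothing in them ties a replicate to a culture of its own. Each p-value is therefore relative to the spread of 2 libraries a group, which may hold technical variation alone.

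The EPN24-Cas13d libraries held 5097332 and 4863449 counts on genes, with 1.73% and 1.66% of all counts on ERCC rows. The EPN24 libraries were shallower, at 1830860 and 1903492, with 19.6% and 20.9% on ERCC rows. All 6 markers fixed for HEK293T had counts in the libraries, with VIM and KRT18 higher in EPN24-Cas13d, LIN28B, SOX11 and NEFM lower, and PAX2 not called. Their summed level ran from 1909 to 1918 CPM (counts scaled to a common library size) in EPN24-Cas13d and from 307 to 340 in EPN24. VIM carried that sum, and the other 5 markers summed to 97.4 to 105 CPM against 182.0 to 182.5, the opposite order. The leukocyte list (PTPRC, CD3E, LYZ) summed to 1.92 to 2.27 CPM against 15.1 to 20.1, and the erythroid list to 0 to 0.629 against 1.89 to 7.14, with HBA1 at 0 in all 4 libraries. The hepatocyte list summed to 1.44 to 2.52 CPM against 9.81 to 12.3, and MUC1 with SFTPC to 1.44 to 2.01 against 6.15 to 17.8. Their part in the results was not tested. In bulk RNA of this kind, a change in the number of cages or vesicles and a change in the RNA inside each cannot be told apart.

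Aminoacyl-tRNA synthetases join each amino acid to its tRNA, so that the ribosome reads every codon with the right residue. Human cells carry separate nuclear genes for the cytosolic and the mitochondrial enzyme of most amino acids, while GARS1 and KARS1 each encode both forms and EPRS1 joins the glutamate and the proline enzyme in a single protein. Several cytosolic enzymes sit with 3 scaffold proteins in the multisynthetase complex, and many cytosolic synthetase genes are known targets of ATF4, the transcription factor that answers amino acid shortage.

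Stretches of coding sequence are shown first because base composition ran alongside the fold changes given further on. They belong to FARSA and FARSB, the subunits of the cytosolic phenylalanine enzyme, and to MARS1 and RARS1, class I cytosolic enzymes for methionine and arginine that both sit in the multisynthetase complex. Each is the central 120 bases of the gene's longest coding exon, from GENCODE version 29 on GRCh38, with T (U in the RNA) in capitals. The windows hold 25, 32, 29 and 42 T in the order printed, and their GC contents are 62.5%, 37.5%, 60.8% and 37.5%. They do not stand for the windows of all members. The window of WARS2, called lower, held 20 T at 69.2% GC, and that of IARS1, called higher, held 37 T at 48.3%.
FARSA, chr19:12924663-12924782, minus strand, exon 11: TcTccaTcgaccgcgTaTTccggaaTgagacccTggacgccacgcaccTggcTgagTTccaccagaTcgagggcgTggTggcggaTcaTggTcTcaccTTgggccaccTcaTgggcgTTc
FARSB, chr2:222624315-222624434, minus strand, exon 12: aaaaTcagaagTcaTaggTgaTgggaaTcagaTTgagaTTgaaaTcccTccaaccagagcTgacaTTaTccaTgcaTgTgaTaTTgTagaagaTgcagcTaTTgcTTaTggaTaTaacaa
MARS1, chr12:57512797-57512916, plus strand, exon 15: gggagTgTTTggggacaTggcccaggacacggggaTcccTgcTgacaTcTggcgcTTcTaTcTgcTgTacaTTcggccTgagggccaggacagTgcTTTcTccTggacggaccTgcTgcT
RARS1, chr5:168517878-168517997, plus strand, exon 14: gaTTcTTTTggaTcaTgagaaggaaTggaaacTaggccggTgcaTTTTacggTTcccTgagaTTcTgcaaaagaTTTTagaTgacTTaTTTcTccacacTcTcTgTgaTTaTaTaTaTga

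Promoter stretches are shown because many of the cytosolic genes are known ATF4 targets and most of them were called higher. RefSeq promoters of 300 bases (GRCh38.p14, 250 before to 50 after the start) were held for 30 of the 35 genes, without VARS1, VARS2, AARS2, YARS1 and LARS1. The letters TGATGNAA, the core of a C/EBP-ATF response element, were searched on both strands. They occurred in 7 of the 30 promoters (23.3%), against 3.62% of 35116 RefSeq promoters of the same length. Of the 7 genes, 6 are cytosolic and stand on the list known as induced through ATF4, and YARS2 is mitochondrial. A match is a description of the letters and not of binding. The windows run 5′ to 3′ along each gene with the match in capitals.
AARS1, chr16:70289675-70289704, minus strand: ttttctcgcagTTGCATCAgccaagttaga
CARS1, chr11:3057407-3057436, minus strand: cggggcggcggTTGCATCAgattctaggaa
IARS1, chr9:92293692-92293721, minus strand: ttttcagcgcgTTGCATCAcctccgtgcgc
MARS1, chr12:57488053-57488082, plus strand: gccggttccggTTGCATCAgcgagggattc
NARS1, chr18:57621804-57621833, minus strand: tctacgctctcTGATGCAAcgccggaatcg
TARS1, chr5:33440956-33440985, plus strand: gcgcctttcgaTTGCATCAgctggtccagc
YARS2, chr12:32756076-32756105, minus strand: atccacactgcTGATGGAAaaattaagttt

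HARS1 and HARS2, the cytosolic and the mitochondrial histidine enzyme, start back to back on chromosome 5, and the DNA between their RefSeq starts is shown because it serves a gene of each compartment. It spans 84 bases with a GC content of 59.5% and is written on the plus strand in lower case. HARS1 starts at the base before it, 140691370, and runs to the left. HARS2 starts at the base after it, 140691455, and runs to the right. In the annotation of the counts the exons of the 2 genes overlap instead, by 108 bases.
HARS1-HARS2, chr5:140691371-140691454: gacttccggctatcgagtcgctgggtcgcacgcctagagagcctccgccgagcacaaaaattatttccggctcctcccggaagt

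Set against the other messages of the same library, most synthetase messages were higher with the Cas13d fusion. All 35 passed the filter on low counts. In edgeR's quasi-likelihood test with trimmed mean of M-values (TMM) scaling and Benjamini-Hochberg adjustment over 20476 genes, called at an adjusted p under 0.05, 26 of the 35 were higher, 5 were lower and 4 were not called. Over all genes tested, 32.6% were called higher, 48.2% lower and 80.9% in either direction. The median log2 fold change, EPN24-Cas13d over EPN24, was 1.77 over the 35 messages, -0.96 over all genes tested and -0.40 over the 15507 protein-coding genes tested. The CPM values of the groups did not overlap for 34 of the 35, with EPN24-Cas13d above for 28 and EPN24 above for 6, where 36.8% and 54.3% of all genes tested stood apart in those directions. NARS1, the cytosolic asparagine enzyme, was the member whose groups overlapped.

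The direction of the low end depended on the scaling. With the ERCC totals as library sizes, which sets each message against a fixed volume of supernatant, the median of all genes tested moved up by 3.34 on the log2 scale, from -0.96 to 2.38. On that scale 34 of the 35 messages were called higher, none lower and FARSB was not called, with 58.4% of all genes called higher, 2.33% lower and 60.7% in either direction. All 6 messages with a negative log2 fold change under TMM scaling (MARS2, NARS2, WARS2, RARS2, RARS1 and FARSB) turned positive. Calls of lower synthetase messages here are therefore relative to the rest of each library and not to the supernatant. In the authors' deposited table the 35 fold changes differed from the ERCC-scaled ones by -0.058 to 0.005, with 34 members higher (30.5% of its 39794 genes with an adjusted p), none lower (0.201%) and FARSB not called.

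**Figure D1:**
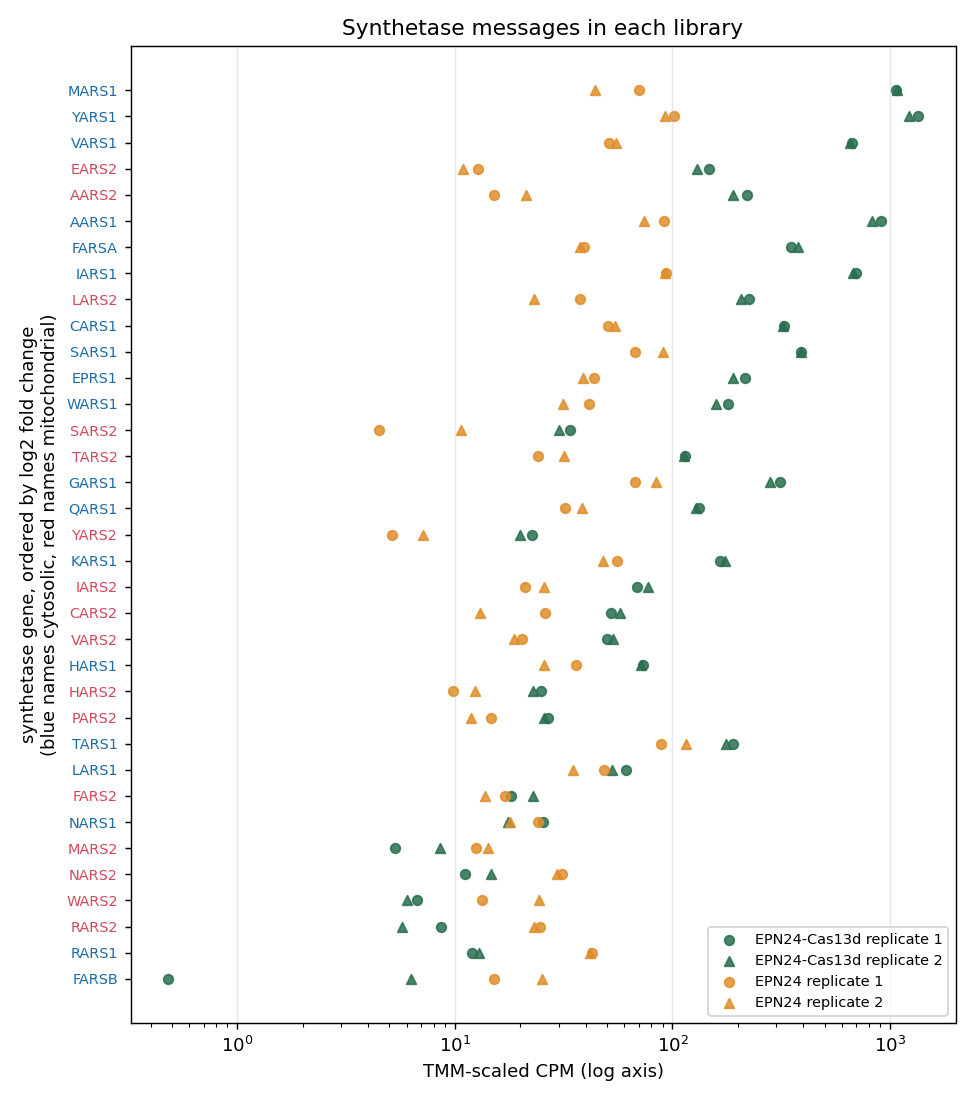
TMM-scaled CPM (log axis) of the 35 synthetase messages in each of the 4 libraries, 1 row per gene ordered by log2 fold change. Points of EPN24-Cas13d lie to the right of those of EPN24 for 28 genes and to the left for 6, and FARSB has the lowest point, at 0.481 CPM.

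**Figure D2:**
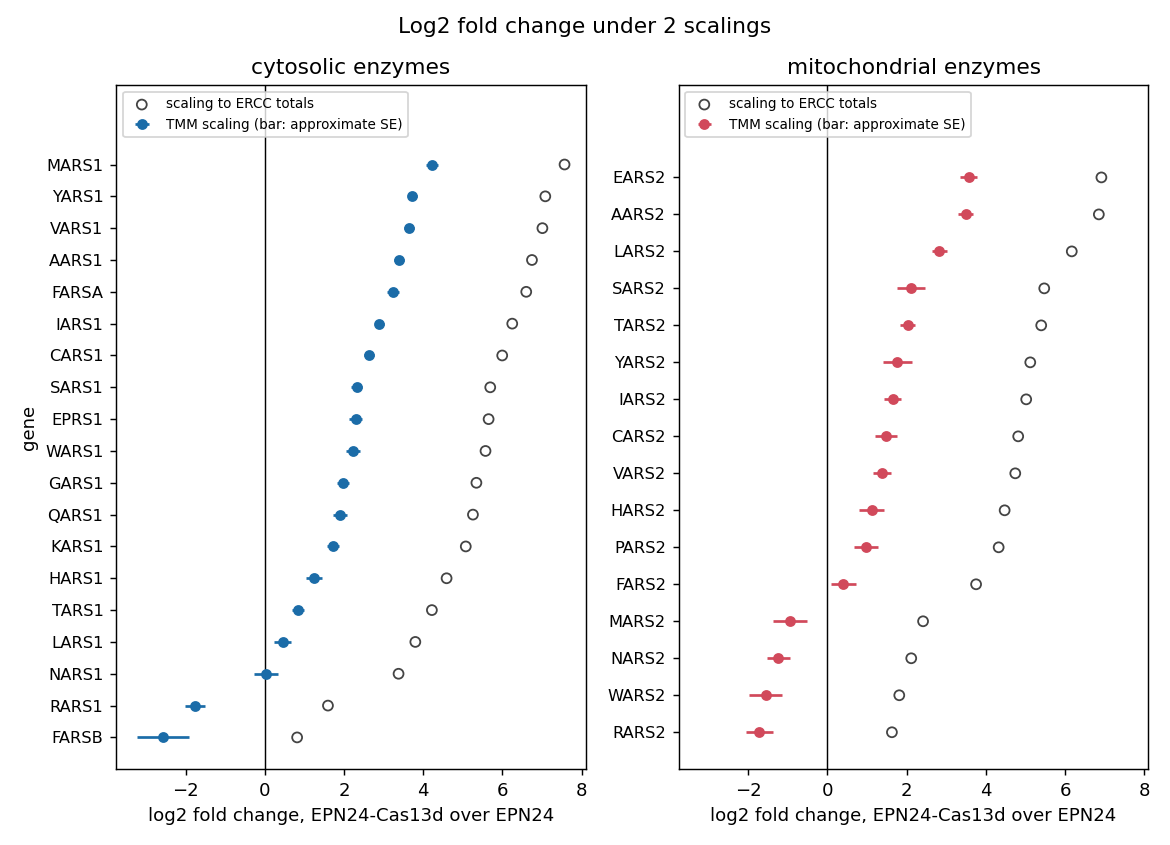
Log2 fold change, EPN24-Cas13d over EPN24, of the cytosolic and the mitochondrial enzymes, with filled points for TMM scaling, bars for its approximate standard error and open points for scaling to ERCC totals. The open points all lie above 0, while 6 filled points lie below it.

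Among the cytosolic enzymes, 15 of 19 were called higher, 2 lower and 2 were not called, with a median log2 fold change of 2.22. MARS1 (ENSG00000166986.15, chr12:57475445-57517569, plus strand), the methionine enzyme that also charges the initiator tRNA, stood at 1060 and 1074 CPM in EPN24-Cas13d and at 70.1 and 44.0 in EPN24. Its log2 fold change of 4.22 (approximate SE 0.16, edgeR adjusted p = 1.28e-11) was the largest of the 35, and both EPN24-Cas13d libraries were far above both EPN24 libraries. YARS1, the tyrosine enzyme, stood at 1344 and 1224 CPM against 102 and 92.3, a log2 fold change of 3.72 (SE 0.12, edgeR adjusted p = 3.47e-12). VARS1, the valine enzyme, was measured at 668 and 654 CPM against 50.8 and 54.9, a log2 fold change of 3.64 (SE 0.13, edgeR adjusted p = 5.21e-12). For both genes the gap between groups was many times the gap within them.

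FARSA, the catalytic subunit of the phenylalanine enzyme, was measured at 351 and 377 CPM against 39.0 and 37.6, a log2 fold change of 3.24 (SE 0.14, edgeR adjusted p = 4.47e-11). AARS1, the alanine enzyme, had 904 and 829 CPM against 91.2 and 73.6, and IARS1, the isoleucine enzyme, 697 and 675 against 93.2 and 92.3. Their log2 fold changes were 3.39 and 2.89. Per kilobase of exon, the scale on which genes can be compared, MARS1 (152 CPM per kb) and FARSA (150) led in EPN24-Cas13d, followed by YARS1 (131), VARS1 (112) and the serine enzyme SARS1 (102). The order rests on the exon length of the count table: per kilobase of the GENCODE transcript, YARS1 (396) came first, then MARS1 (367), AARS1 (249), SARS1 (208) and FARSA (177). The order in EPN24 was another, with the threonine enzyme TARS1 first at 24.0 CPM per kb, followed by SARS1 at 20.4 and FARSA at 15.7, while MARS1 stood at 8.12. As a share of all cytosolic synthetase counts, YARS1 took 18.4% in EPN24-Cas13d and 9.24% in EPN24, MARS1 15.3% and 5.43%, and TARS1 2.63% and 9.74%.

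The enzymes that serve both compartments or carry both activities were also higher. GARS1, for glycine, stood at 311 and 282 CPM against 66.9 and 84.0, a log2 fold change of 1.97 (SE 0.14, edgeR adjusted p = 1.6e-08). KARS1, for lysine, was at 165 and 174 CPM against 55.5 and 47.8, a log2 fold change of 1.72 (SE 0.15, edgeR adjusted p = 1.5e-07). EPRS1, for glutamate and proline, had 215 and 190 CPM against 43.7 and 38.8, a log2 fold change of 2.29 (SE 0.16, edgeR adjusted p = 8.26e-09). In all 3 genes the groups stood well apart. The remaining cytosolic messages called higher were those for cysteine (CARS1, 2.63 on the log2 scale), serine (SARS1, 2.32), tryptophan (WARS1, 2.22), glutamine (QARS1, 1.89), histidine (HARS1, 1.24) and threonine (TARS1, 0.85).

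The known groupings of the cytosolic enzymes cut across this order. Of the 7 enzymes of the multisynthetase complex, 5 were higher, RARS1 was lower and the leucine enzyme LARS1 was not called, with a median log2 fold change of 1.89. Among the 12 cytosolic enzymes outside the complex, 10 were higher, FARSB was lower and NARS1 was not called, with a median of 2.27. Of the 12 listed as induced through ATF4, 10 were higher, none was lower and LARS1 and NARS1 were not called, with a median of 2.31. The 7 other cytosolic enzymes gave 5 higher and 2 lower, with a median of 1.72. By catalytic fold, over both compartments, class I enzymes gave 13 higher and 3 lower of 18 (median 1.83) and class II enzymes 12 higher and 2 lower of 16 (median 1.48), with EPRS1 belonging to both. No difference between these groupings was tested. The promoter match shown above was carried by MARS1 and AARS1, and also by TARS1 and NARS1, at 0.85 and 0.03. FARSB, RARS1, RARS2, WARS2 and NARS2, called lower, did not carry it. Most of the genes called higher with a promoter to search did not carry it either. These were EPRS1, GARS1, SARS1 and WARS1, all listed as induced through ATF4, and FARSA, KARS1, QARS1 and HARS1. The mitochondrial ones were EARS2, LARS2, TARS2, SARS2, IARS2, CARS2, HARS2 and PARS2. YARS1, VARS1 and AARS2 had no promoter to search. A link between the match and the order was not tested.

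LARS1 stood at 61.4 and 52.7 CPM against 48.4 and 34.8, a log2 fold change of 0.45 (SE 0.21, edgeR adjusted p = 0.0638). Without EPN24 replicate 1 it was 0.56 and called (edgeR adjusted p = 0.0238), while total-count scaling, a stricter filter on low counts and ERCC scaling gave -0.12, -0.41 and 3.80. NARS1 was at 25.5 and 17.6 CPM against 24.1 and 18.0, a log2 fold change of 0.03 (SE 0.30, edgeR adjusted p = 0.921), and the spread within each group exceeded the difference between them. Without EPN24-Cas13d replicate 1 NARS1 gave -0.19, without EPN24 replicate 2 -0.23 and without EPN24-Cas13d replicate 2 0.34, none of them called, while the stricter filter gave -0.83, called lower (edgeR adjusted p = 0.027). TARS1, at 190 and 177 CPM against 88.8 and 116, was called at 0.85 (SE 0.15, edgeR adjusted p = 0.000171) and at 0.53 without EPN24 replicate 1, but its log2 fold change was -0.01 under the stricter filter and -0.04 once a background density was subtracted.

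The phenylalanine enzyme is built of FARSA and FARSB chains in equal number, and its messages lay at opposite ends of the cytosolic list. FARSB (ENSG00000116120.11, chr2:222566899-222656092, minus strand), the subunit that carries the editing site, was counted 2 and 25 times in the EPN24-Cas13d libraries against 34 and 53 times in the others, or 0.481 and 6.29 CPM against 15.2 and 25.1. Both EPN24-Cas13d libraries were below both EPN24 libraries, but the EPN24-Cas13d libraries differed widely from each other, and the first lay below its 3-count floor of 0.721 CPM. The log2 fold change was -2.57 (SE 0.65, edgeR adjusted p = 0.00241), the most negative of the 35. It was -1.60 without EPN24-Cas13d replicate 1 and -5.20 without EPN24-Cas13d replicate 2, called in both fits (edgeR adjusted p = 0.0101 and 2.13e-08), and 0.81 and not called with ERCC scaling (edgeR adjusted p = 0.375). The pooled counts gave a log2 ratio of -2.59 with an exact 95% interval from -3.27 to -1.95. It covers only the counting error of independent counts.

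FARSA (ENSG00000179115.11, chr19:12922479-12934037, minus strand) lay 5.81 above FARSB in log2 fold change, and the same gap stood between them with ERCC scaling (6.60 and 0.81). Within each library, the log2 ratio of FARSA to FARSB per kilobase was 10.7 and 7.35 in EPN24-Cas13d and 2.82 and 2.05 in EPN24, so that the groups did not overlap. The exact two-sided permutation p was 0.333, the smallest that 2 libraries against 2 allow. In the coding windows printed above, FARSA is richer in G and C and FARSB in A and T, and the whole coding sequences differed likewise, at 61.4% and 41.6% GC.

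RARS1 (ENSG00000113643.9, chr5:168486451-168519301, plus strand), the cytosolic arginine enzyme, stood at 12.0 and 12.8 CPM against 42.8 and 41.7, a log2 fold change of -1.76 (SE 0.26, edgeR adjusted p = 3.1e-05). RARS2, its mitochondrial counterpart, was at 8.65 and 5.71 CPM against 24.5 and 23.2, a log2 fold change of -1.72 (SE 0.35, edgeR adjusted p = 0.00056). The 2 arginine messages were thus lower in EPN24-Cas13d in both libraries and by nearly the same size, relative to the rest of the library. They turned to 1.59 and 1.63 with ERCC scaling. The near equality depended on the background: the group difference in the log2 ratio of RARS1 to RARS2 was -0.008, but -0.898 with a background density subtracted.

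Among the mitochondrial enzymes, 11 of 16 were called higher, 3 lower and 2 were not called, with a median log2 fold change of 1.43. EARS2 (ENSG00000103356.18, chr16:23520754-23557731, minus strand), the glutamate enzyme, stood at 148 and 130 CPM against 12.7 and 10.9, a log2 fold change of 3.56 (SE 0.21, edgeR adjusted p = 1.58e-09). AARS2, the alanine enzyme, was at 220 and 189 CPM against 15.2 and 21.3, a log2 fold change of 3.49 (SE 0.19, edgeR adjusted p = 7.16e-10). LARS2, the leucine enzyme, had 225 and 206 CPM against 37.5 and 23.2, a log2 fold change of 2.82. In each of these 3 messages both EPN24-Cas13d libraries were above both EPN24 libraries. TARS2, the threonine enzyme, stood at 114 and 113 CPM against 24.1 and 31.7, a log2 fold change of 2.03 (SE 0.19, edgeR adjusted p = 3.33e-07). Per kilobase, AARS2 (39.0 CPM per kb), TARS2 (28.3) and EARS2 (19.9) had high levels among the mitochondrial messages of EPN24-Cas13d, against 3.48, 6.94 and 1.69 in EPN24, where IARS2 stood at 5.63. Per kilobase of the GENCODE transcript EARS2 (81.3) preceded AARS2 (53.0), LARS2 (45.5) and TARS2 (41.7) in EPN24-Cas13d.

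Those called higher with smaller values were SARS2 (2.11), YARS2 (1.77), IARS2 (1.65), CARS2 (1.47), VARS2 (1.39), HARS2 (1.12) and PARS2 (0.97), the enzymes for serine, tyrosine, isoleucine, cysteine, valine, histidine and proline. HARS1 and HARS2, which share the stretch printed above, gave 1.24 and 1.12. HARS1 (chr5:140673035-140691537) was at 73.4 and 71.6 CPM against 35.9 and 25.6 and HARS2 (chr5:140691430-140699305) at 24.9 and 22.9 against 9.81 and 12.3, with edgeR adjusted p = 0.000134 and 0.00501. HARS2 was not called with total-count scaling (0.55), the stricter filter (0.26), DESeq2's Wald test (1.10) or background subtraction (0.58), and HARS1 was not called under the stricter filter (0.38). PARS2, the called message nearest to the threshold, stood at 26.7 and 25.7 CPM against 14.7 and 11.8 (edgeR adjusted p = 0.00769) and was not called without EPN24-Cas13d replicate 1 (1.01, edgeR adjusted p = 0.0548).

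WARS2, the mitochondrial tryptophan enzyme, was lower in EPN24-Cas13d, at 6.73 and 6.04 CPM against 13.4 and 24.4, a log2 fold change of -1.56 (SE 0.41, edgeR adjusted p = 0.0031). NARS2, for asparagine, was at 11.2 and 14.6 CPM against 31.2 and 29.6, a log2 fold change of -1.24 (SE 0.29, edgeR adjusted p = 0.00145), and was not called without EPN24-Cas13d replicate 1 (-0.98, edgeR adjusted p = 0.0578). MARS2, for methionine, had 5.29 and 8.56 CPM against 12.5 and 14.2 and lay just outside the threshold at -0.94 (SE 0.43, edgeR adjusted p = 0.0543). It was -1.18 and called without EPN24 replicate 1 (edgeR adjusted p = 0.0317) and -0.57 and not called without EPN24-Cas13d replicate 1. With ERCC scaling WARS2, NARS2 and MARS2 were at 1.81, 2.12 and 2.42. FARS2, the single-chain mitochondrial phenylalanine enzyme, was not called, at 18.0 and 22.8 CPM against 16.9 and 13.7 (log2 fold change 0.40, edgeR adjusted p = 0.242), and was negative with total-count scaling (-0.17), the stricter filter (-0.46) and background subtraction (-0.15).

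Enzymes that charge with the same amino acid in the 2 compartments did not as a rule move by the same amount. Of 17 cytosolic and mitochondrial pairings, 13 differed by at least 1 in log2 fold change, the cytosolic message having the larger value in 11 and the mitochondrial in 6. FARS2 and EPRS1 each enter more than a single pairing, and no gaps were computed for pairs of unrelated genes. The widest gap was for methionine, where MARS1 exceeded MARS2 by 5.16. WARS1, at 181 and 159 CPM against 41.5 and 31.5, exceeded WARS2 by 3.78. The mitochondrial message had the larger value most of all for FARS2 over FARSB, by 2.97, and the group difference in the log2 ratio of FARSB to FARS2, -3.73 over all 4 libraries, was -5.27 without EPN24-Cas13d replicate 2 and -2.19 without EPN24-Cas13d replicate 1. The leucine, threonine and glutamate enzymes also went that way, with LARS2 above LARS1 by 2.37, TARS2 above TARS1 by 1.18 and EARS2 above EPRS1 by 1.27 on the log2 scale. FARSA, however, exceeded the same FARS2 by 2.83, so the phenylalanine pairings went both ways. Arginine, alanine, histidine and serine gave the closest pairs, within 0.21 of each other. With a background density subtracted, the group differences in their log2 ratios were -0.90, -0.31, 0.34 and -0.47. These gaps carry no test over genes, and the exact permutation test over 2 libraries a group cannot go below 0.333.

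**Figure D3:**
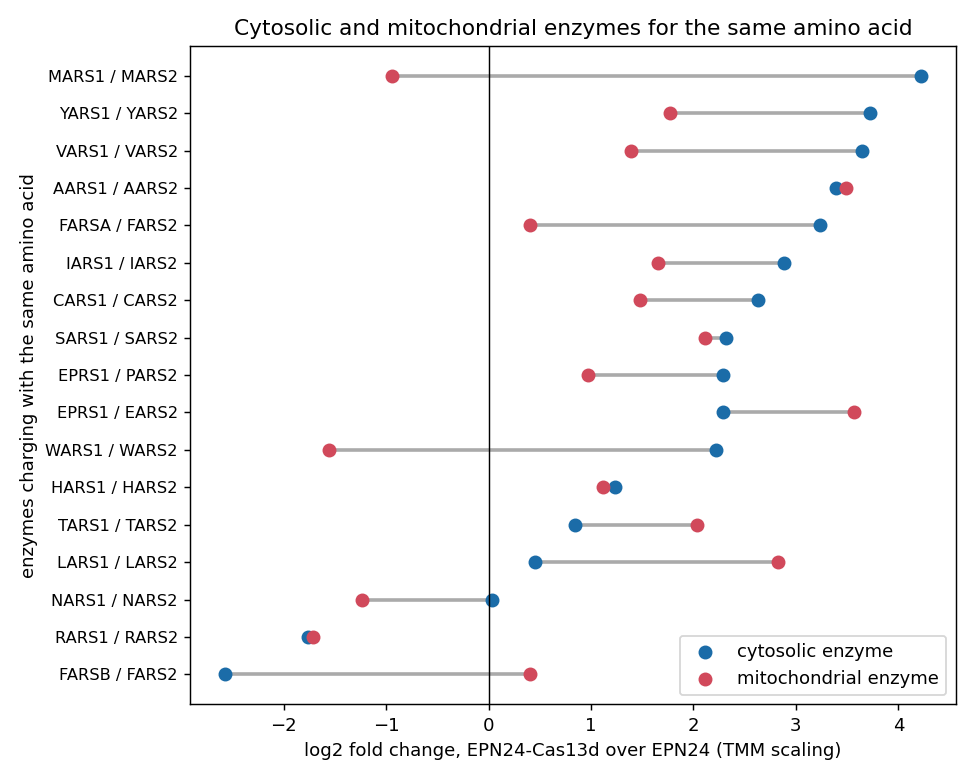
Log2 fold change, EPN24-Cas13d over EPN24, under TMM scaling for the 17 pairings of a cytosolic and a mitochondrial enzyme, joined by a line. The methionine and tryptophan pairs span 0, while the arginine, alanine, histidine and serine pairs nearly coincide.

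Summed over each list as counts per kilobase, cytosolic messages stood at 5.45 and 5.58 times the mitochondrial ones in EPN24-Cas13d and at 3.22 and 2.92 times in EPN24. The means were 5.51 ± 0.092 (SD, n = 2) and 3.07 ± 0.215 (SD, n = 2), a difference of 0.846 on the log2 scale with no overlap between groups and an exact two-sided permutation p of 0.333, the smallest possible. The difference was 0.914 without GARS1 and KARS1, which serve both compartments, and 0.623 after subtraction of the background density. Per 1000 ERCC counts, the cytosolic list gave 330 counts in each EPN24-Cas13d library and 5.33 and 4.37 in EPN24, a 68.0-fold difference. The mitochondrial list gave 48.1 and 47.6 against 1.46 and 1.22, a 35.7-fold difference. Both lists were thus more abundant per spike-in in every EPN24-Cas13d library, with the same exact p of 0.333. These folds also hold the difference in all gene counts per spike-in. As a share of all gene counts, the cytosolic list took 0.569% in EPN24-Cas13d and 0.123% in EPN24, a ratio of 4.64. The mitochondrial list took 0.0824% and 0.0339%, a ratio of 2.43.

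Base composition ran with the fold change across the 35 messages. The log2 fold change under TMM scaling correlated with the T share of the transcript at Pearson r = -0.72 and Spearman rho = -0.66 (n = 35 genes), and r was -0.68 without the 2 genes of most extreme T share. For the GC content of the coding sequence r was 0.51 and rho 0.46, and r was 0.49 without the 2 most extreme genes. These are descriptions across genes that share the same 4 libraries. Over 15222 tested protein-coding genes the same correlations were r = -0.40 for T share and 0.45 for GC, so the trend was not particular to the synthetases. Exon length gave r = 0.04.

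Split at the median T share of tested coding genes, 24.0%, the 19 synthetase messages below it held 18 called higher and none called lower, with FARS2 not called. The 16 above it held 8 higher, 5 lower and 3 not called. Among all coding genes, 53.1% were called higher and 28.6% lower below the median, and 20.5% and 57.9% above it. All 5 messages called lower (FARSB, RARS1, RARS2, WARS2 and NARS2) and the uncalled MARS2, LARS1 and NARS1 thus lay on the T-rich side. MARS2 lay there with a coding GC content of 57.7%, above that of MARS1 at 53.9%. IARS1, EPRS1 and IARS2 were among the 8 called higher on that side.

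**Figure D4:**
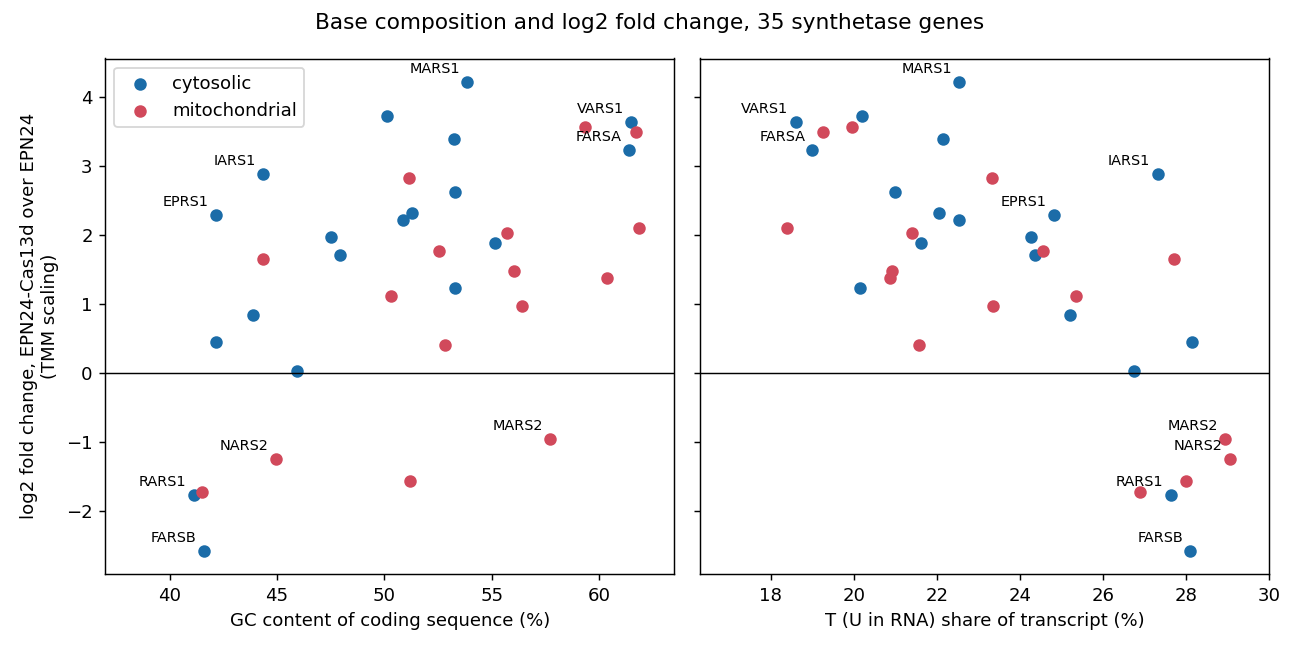
Log2 fold change, EPN24-Cas13d over EPN24 (TMM scaling), against the GC content of the coding sequence (left) and the T share of the transcript (right) for the 35 genes, with 9 genes named. The 6 messages below 0 sit at the right of the T panel, while in the GC panel MARS2 sits apart from FARSB and RARS1.

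With the GC trend of all genes removed from the fit, 25 synthetase messages were called higher and none lower. Of all genes tested, 30.2% were called higher and 40.9% lower. The 25 were 17 of 19 cytosolic and 8 of 16 mitochondrial messages. The cytosolic median was 1.91, against 2.22 under TMM scaling alone, and the mitochondrial median 0.59 against 1.43. FARSB, RARS1, RARS2, WARS2 and NARS2 were then at -1.27, -0.43, -0.48, -0.41 and -0.35 and not called, and VARS2, SARS2 and PARS2 lost their calls. LARS1 (1.76) and NARS1 (0.87) were called higher, MARS1 was at 3.60, and IARS1 (3.83) and EPRS1 (3.31), genes with coding GC contents of 44.3% and 42.2%, stood above their TMM values.

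Low-level counts differed between the groups as well. Over 382 olfactory receptor genes, which serve here as a gauge of counts on genes that kidney-derived cells are not known to use, counts per kilobase were 0.174 and 0.137 in EPN24-Cas13d and 1.80 and 1.40 in EPN24. In EPN24, 6 synthetase messages were within 3 times that density on average, namely HARS1, LARS1, EARS2, CARS2, NARS2 and RARS2. Markers within 3 times it included PTPRC (1.18), LYZ (1.29), ALB (1.44), SOX11 (1.74) and FGB (1.76), while MUC1 (3.55) and CD3E (4.12) stood above. With the density of each library subtracted, RARS2 was at -1.66 and NARS2 at -1.52, both still called lower, and EARS2 (3.44), CARS2 (1.25) and HARS1 (0.88) were still called higher. FARSB was at -3.19 and MARS1 at 3.41.

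**Figure D5:**
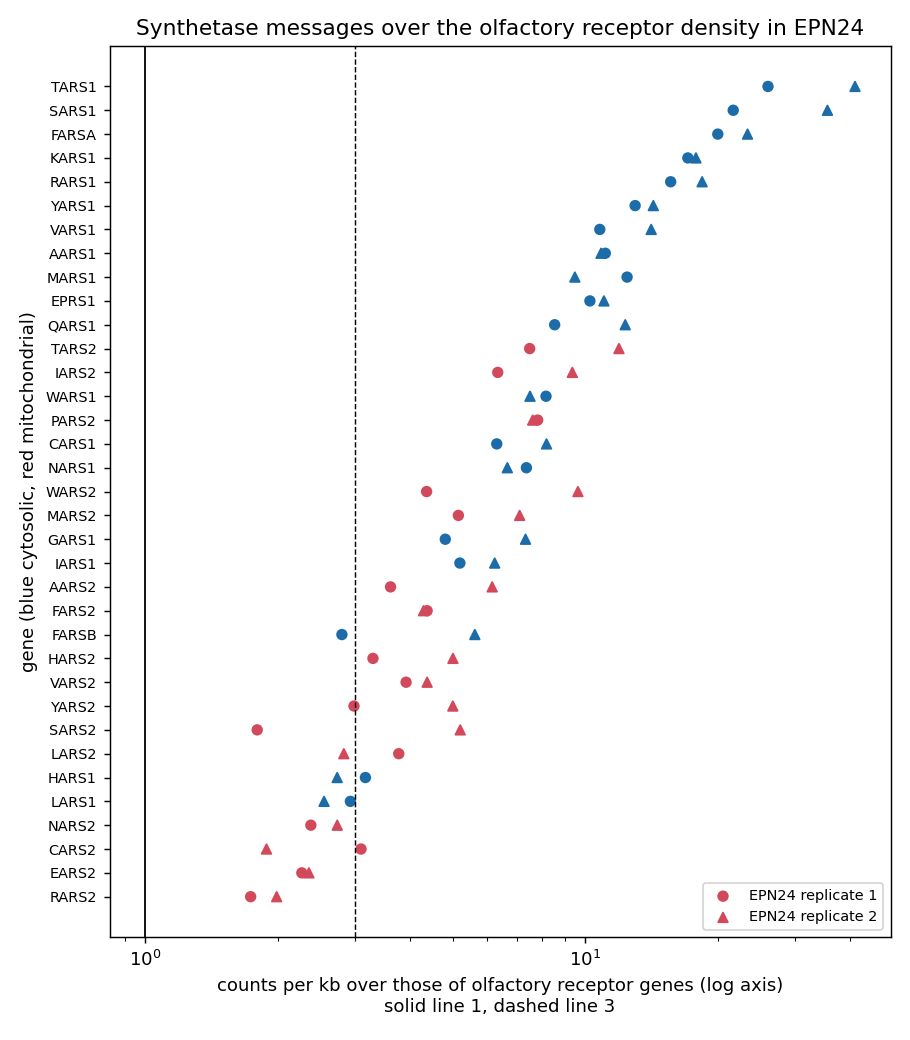
Counts per kilobase of the 35 synthetase messages in the EPN24 libraries, divided by those of the olfactory receptor genes of the same library (log axis), with circles for replicate 1 and triangles for replicate 2. TARS1, SARS1 and FARSA stand highest, while 6 genes average less than 3 times the olfactory receptor density.

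Some values are shared with neighbouring genes, since the counting mode with respect to strand is not given in the sources used here. VARS2 shares 63.0% of its exon length with the same-strand gene ENSG00000288473 and SARS2 48.2% with ENSG00000269547, and YARS2 shares 18.1% with ENSG00000286950 on the opposite strand, so these 3 values are uncertain. HARS1 overlaps WDR55 on the opposite strand over 7.70% of its exon length. WDR55, at 520 and 564 counts against 58 and 25, was called higher at 2.81. HARS1 and HARS2 also overlap each other on opposite strands, over 0.763% and 2.90% of their exon lengths. MARS1 overlaps ARHGAP9 over 7.38%, called lower at -3.65, and DDIT3, the stress factor CHOP, over 5.05%, not called at 0.38, both on the opposite strand. WARS2 overlaps the antisense gene WARS2-AS1 over 4.39%, and that gene was called higher at 1.34 while WARS2 was lower.

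Of 23 other genes of tRNA charging, 20 could be tested, of which 8 were higher, 6 lower and 6 not called. Their median log2 fold change was -0.12. With ERCC scaling 15 were higher and none lower. Over all genes tested, 32.6% were higher and 48.2% lower under TMM scaling, and 58.4% and 2.33% with ERCC scaling. The 3 scaffold proteins of the multisynthetase complex did not share the direction of most of its enzymes under TMM scaling. AIMP1 was at 3.85 and 2.77 CPM against 16.9 and 16.6, a log2 fold change of -2.32 (SE 0.45, edgeR adjusted p = 0.000364). EEF1E1 had 6 and 1 counts against 24 and 25, a log2 fold change of -3.66 (SE 0.73, edgeR adjusted p = 0.000475), and AIMP2 was at -0.74 and not called. With the GC trend removed AIMP1 was at -0.21 (edgeR adjusted p = 0.689) and EEF1E1 at -1.65 (edgeR adjusted p = 0.0597), neither called, and AIMP2 at -1.01, called lower (edgeR adjusted p = 0.0342). EEF1E1 was at -5.19 without EPN24-Cas13d replicate 1, a fit in which AIMP2 was called lower at -1.32, and at -2.86 without EPN24-Cas13d replicate 2. With ERCC scaling AIMP1 (1.01) and EEF1E1 (-0.35) were not called and AIMP2 (2.61) was called higher.

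All 3 genes that sense uncharged tRNA and pass the signal on were higher: GCN1 (2.77), the kinase gene EIF2AK4 (1.33) and ATF4 (1.14). ATF4 itself stood at 865 and 801 CPM against 314 and 445. Its call was lost with the GC trend removed (0.14, edgeR adjusted p = 0.363), with the background density subtracted (0.22, edgeR adjusted p = 0.188) and under the stricter filter (0.28, edgeR adjusted p = 0.0797), and its value was 0.76 without EPN24 replicate 1. ELAC2, which trims the 3′ end of tRNA precursors, was at 362 and 351 CPM against 14.3 and 30.8, a log2 fold change of 3.99 (SE 0.21, edgeR adjusted p = 4e-10), and RTCB, the tRNA ligase, reached 2.77. Of the same list, TRNT1, which adds the CCA end, was lower at -2.76 (edgeR adjusted p = 0.00387) and XPOT, the tRNA exporter, was not called at -0.17, while with ERCC scaling they were at 0.55, not called, and 3.18, called higher. With the GC trend removed TRNT1 was not called (-0.84, edgeR adjusted p = 0.343). PSTK, which prepares selenocysteine tRNA, had 2 and 0 counts against 19 and 32.5, and the pooled counts gave a log2 ratio of -5.60 with an exact 95% interval from -8.69 to -3.68 for counting error. With ERCC scaling its value was -2.16 and not called. TARS3, a further threonine enzyme, was not called (-0.07, and 3.27 with ERCC scaling). DTD2, PRORSD1P and ELAC1 did not pass the filter. In EPN24, 11 of the 23 genes averaged less than 3 times the olfactory receptor density. They included AIMP1 (2.50), TRNT1 (1.66) and PSTK (2.77), called lower, and ANKRD16 (1.83) and GATB (2.37), called higher. With that density subtracted AIMP1, TRNT1 and PSTK were at -2.66, -2.76 and -6.36, all still called lower.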

How the data were processed

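Total RNA of culture supernatant was sequenced from 4 libraries. The authors deposited 1 expected count per gene and library, made by trimming, aligning and counting the reads, with no normalization. Per the submitters' processing notes, reads were processed for hg38 (GRCh38) with STAR 2.7.10a, Trim Galore 0.6.7, FastQC 0.11.9, DESeq2 1.36.0 and featureCounts 2.0.1. The sources used here do not give the annotation, the strand setting or the treatment of multi-mapping reads. Of 61640 rows, 92 were ERCC and 5 fragments of a broken row (the gene ANK2) were left out. Of the positive values, 12.2% to 22.2% per library were not whole, and all were rounded. The authors' deposited table of log2 fold changes and p-values was read only for comparison.

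The test was edgeR 4.0.16 (robust quasi-likelihood, TMM without ERCC rows, filterByExpr) in R 4.3.3, adjusted by Benjamini-Hochberg over 20476 genes. CPM are relative to the TMM-scaled library size, so 3 counts are 0.721 to 1.42 CPM, and intervals and floors cover counting error only. Standard errors are approximate, derived from the fold change and its test statistic. Of the positive whole counts, 66.8% to 72.4% per library were even. Replicates differed by more than the sampling noise of independent counts (chi-square per degree of freedom 2.45 and 3.08). That value and the exact intervals take each count as independent, which they would not be if mates were counted separately. The intervals may therefore be too narrow, and the part of the chi-square that is replicate variation was not tested. On simulated data of 20476 genes, of which 200 were changed, 26% of 2-fold and 62% of 4-fold changes were recovered. In the data 80.9% of genes were called, so these rates need not hold for this comparison. DESeq2 1.42.0 and limma 3.58.1 were alternatives. The members, the gene lists and their ATF4, complex and class groupings were chosen with earlier results of these data known. Members given in every library were the 4 with the largest and the 4 with the most negative fold change, the 3 most abundant per kilobase in each compartment, the pairs farthest apart and closest, genes serving both compartments, and those nearest the threshold; others named were chosen after their values were seen. Sequences came from GENCODE version 29 and RefSeq. Some genes of the marker and pathway lists are not reported here.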

Additional observations from a re-analysis of the deposited data

How the results depend on the processing

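Under 16 alternatives, 505 of 560 synthetase values kept their direction and their side of the threshold, and 19 messages, all higher, did so under every one. The numbers of synthetase messages called higher and lower, 26 and 5, were 26 and 5 with DESeq2 size factors, 23 and 6 with total counts, 24 and 5 with DESeq2's Wald test, 26 and 6 with limma-voom, 21 and 7 with the stricter filter (10 counts and 10 CPM in 2 libraries), and 25 to 27 and 4 to 6 without each replicate in turn. Of all 20476 genes tested, 6653 were higher and 9934 lower with DESeq2 size factors, and 5559 and 11161 with total counts. DESeq2's Wald test gave 5862 and 8078, and limma-voom 6564 and 9807. The stricter filter gave 4780 and 4889 of 11735. Same-numbered libraries did not deviate together (r = -0.0041 over 20476 genes), so the replicate numbers are not taken as pairs. A fit with the replicate block gave 26 and 5 synthetase calls, and 6545 higher and 8496 lower of all genes, against 6685 and 9871.

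With ERCC scaling, 0 cytosolic, 0 mitochondrial, 0 synthetase and 0 pathway messages were lower, 15 pathway genes were higher, and all genes gave 11960 higher and 477 lower, so that the higher share of calls moved from 40.4% to 96.2% (33.2% with total counts). Signs then reversed for FARSB (0.81), MARS2 (2.42), NARS2 (2.12), RARS1 (1.59), RARS2 (1.63), WARS2 (1.81), TARS3 (3.27), AARSD1 (3.19), XPOT (3.18), QRSL1 (3.11), AIMP2 (2.61), DTD1 (2.20), SEPSECS (1.13), AIMP1 (1.01) and TRNT1 (0.55). With the GC trend removed, 0 cytosolic, 0 mitochondrial, 0 synthetase and 2 pathway messages were lower, and TARS3 (0.60), XPOT (1.25) and QRSL1 (1.19) reversed. Under the stricter filter 5 pathway genes were higher and 4889 of all genes lower, with fewer genes tested (11735), and FARS2 (-0.46), LARS1 (-0.41), NARS1 (-0.83), TARS1 (-0.013) and GATC (-0.13) reversed. After background subtraction 5 pathway genes were higher and 5840 of all genes lower (of 15762 tested), and FARS2 (-0.15), NARS1 (-0.70), TARS1 (-0.041) and the SARS1 to SARS2 ratio (-0.47) reversed. Total counts reversed FARS2 (-0.17), LARS1 (-0.12), NARS1 (-0.54) and MTFMT (-0.28). Halved counts, for mates counted separately, reversed NARS1 (-0.36). No filter reversed TARS3 (0.29), AARSD1 (0.20), XPOT (0.19) and QRSL1 (0.060), and limma-voom reversed QRSL1 (0.053). TMM factors were computed anew on the genes that each filter kept. All 35 synthetase messages passed the stricter filter, under which their median log2 fold change was 0.91 against 1.77. The median of all genes tested was then 0.015 against -0.96. The causes of the sign changes were not tested. Leaving out 1 library turned the sign of uncalled values only (QRSL1 was called lower without EPN24 replicate 1), which ranged over NARS1 (-0.23 to 0.34), MTFMT (-0.14 to 0.54), TARS3 (-0.29 to 0.19), AARSD1 (-0.49 to 0.20) and QRSL1 (-1.15 to 1.06), and of the RARS (-0.35 to 0.33), AARS (-0.49 to 0.31), HARS (-0.25 to 0.56) and SARS (-0.23 to 0.55) ratios.

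Depth limits the low end: with 2 libraries a group and EPN24 totals of at most 1903492 counts, FARSB, PSTK and EEF1E1 rest on 0 to 53 counts a library, and their fold changes carry wide counting intervals. In EPN24, 9894 of the 20476 genes tested lay within 3 times the olfactory receptor density.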
